A study of Mus musculus with 2 samples.

Results

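The potassium channel genes of the mouse carry symbols that begin with Kcn. Their peaks were collected from the deposited annotation of an anti-FLAG CUT&Tag peak list by one rule, a gene symbol of Kcn followed by a letter and not ending in os. The rule took 941 of 99782 annotated peaks (0.943%). These peaks were assigned to 92 symbols on 19 chromosomes. Of these symbols, 89 are protein-coding genes. The other 3 (Kcnmb4os1, Kcnmb4os2 and Kcnq1ot1) are non-coding antisense RNAs with 13 peaks that meet the rule by name, although they encode no channel. CUT&Tag uses an antibody to bring the transposase Tn5 to chromatin, so that the DNA near the antibody's target is cut, tagged and sequenced. The series holds 1 anti-FLAG library and 1 IgG control library, both from hippocampus of untreated C57BL/6J mice of the genotype CamK-PARIS. PARIS is a zinc finger protein of the KRAB type, studied as a transcriptional repressor. The labels give neither the promoter behind the name CamK, the age, nor the number of animals or whether they were pooled, and they include no animals without the transgene. Only the peak list of the anti-FLAG library was analysed, the IgG library enters through the authors' peak calling, and with 1 library per antibody no difference could be tested against replicate spread. A genomic peak list holds no expression markers by which the labelled tissue could be checked.

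Potassium channels let potassium ions leave or enter the cell along their gradient, and in hippocampal neurons they set the resting potential, repolarise the action potential and limit repetitive firing. The pore-forming families are the voltage-gated Kcna to Kcnd genes, the electrically silent partners Kcnf, Kcng, Kcns and Kcnv, the Kcnq genes of the M-current, the ether-a-go-go relatives Kcnh, the calcium- or sodium-activated Kcnma, Kcnn, Kcnt and Kcnu, the inward rectifiers Kcnj and the tandem-pore leak channels Kcnk (K2P). Accessory subunits (Kcnab, Kcne, Kcnip and Kcnmb) bind the pore-forming subunits and change their gating or transport, and Kcnrg, a regulator, was counted with them.

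Sequences at the peaks are shown first, because location and base composition are what a peak list measures. Each of the next 5 sequences is the 250 bases immediately upstream of a RefSeq transcription start site (TSS, GRCm38.p6, the mm10 build), read 5′ to 3′ on the strand of the gene, with every CG dinucleotide in capitals. They were chosen, 1 in each of 5 classes, as promoters without an annotated exon in the window. Each is overlapped, in part or in full, by the tallest Kcn promoter peak of its class that met this condition. The windows were of unlike composition: the Kcna5 stretch holds 3 CG and the Kcnj2 stretch 14. The contrast is one of windows and not of the bases under the peaks. The Kcnj2 peak ends at chr11:111066014, upstream of most of the CG in its window.
Kcna5 promoter, chr6:126535556-126535805, minus strand: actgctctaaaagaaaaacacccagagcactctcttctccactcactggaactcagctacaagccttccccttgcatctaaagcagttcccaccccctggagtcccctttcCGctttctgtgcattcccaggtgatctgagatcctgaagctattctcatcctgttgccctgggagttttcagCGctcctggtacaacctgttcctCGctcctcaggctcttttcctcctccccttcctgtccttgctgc
Kcnt2 promoter, chr1:140245468-140245717, plus strand: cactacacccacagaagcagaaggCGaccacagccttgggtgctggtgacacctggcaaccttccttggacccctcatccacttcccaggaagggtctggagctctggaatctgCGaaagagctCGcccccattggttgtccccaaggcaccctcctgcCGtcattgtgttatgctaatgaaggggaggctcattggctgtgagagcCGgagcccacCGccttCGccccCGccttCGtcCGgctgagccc
Kcnj2 promoter, chr11:111065914-111066163, plus strand: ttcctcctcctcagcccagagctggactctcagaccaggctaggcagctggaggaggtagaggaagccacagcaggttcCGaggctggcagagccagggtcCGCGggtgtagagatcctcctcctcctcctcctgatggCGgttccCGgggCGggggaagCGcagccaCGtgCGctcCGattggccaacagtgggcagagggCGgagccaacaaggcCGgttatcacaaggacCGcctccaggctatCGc
Kcnk13 promoter, chr12:99964249-99964498, plus strand: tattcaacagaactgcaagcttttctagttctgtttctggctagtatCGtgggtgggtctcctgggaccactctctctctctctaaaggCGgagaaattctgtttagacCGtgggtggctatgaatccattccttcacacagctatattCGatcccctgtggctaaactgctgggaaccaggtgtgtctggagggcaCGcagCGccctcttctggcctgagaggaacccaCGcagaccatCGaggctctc
Kcnip3 promoter, chr2:127522095-127522344, minus strand: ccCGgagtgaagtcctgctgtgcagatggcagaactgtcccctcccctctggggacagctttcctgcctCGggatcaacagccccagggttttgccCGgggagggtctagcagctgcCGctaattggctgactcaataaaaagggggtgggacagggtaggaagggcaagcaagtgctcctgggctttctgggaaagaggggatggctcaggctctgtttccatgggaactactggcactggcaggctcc

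The Kcna5 peak that overlaps the first of these windows had a maximum signal of 535. Those that overlap the Kcnk13, Kcnj2, Kcnt2 and Kcnip3 windows had maxima of 345, 289, 251 and 205. The promoter table held a window for 69 of the 94 protein-coding Kcn genes and, with alternative starts and the non-coding symbols, 96 Kcn windows in all, each of 250 bases upstream and 50 bases downstream. A peak overlapped 32 of these 96 windows (33.3%), against 22.9% of all 32851 windows. The overlapped Kcn windows held a median of 11.5 CG dinucleotides, fewer than the median of 21 in all overlapped windows. The Kcn windows without a peak (median 9) held more than all windows without one (median 5). Alternative starts of 1 gene, such as those of Kcnc2 and Kcnk2, were counted separately. The 32 overlapped Kcn windows came from 25 symbols, and the 7533 over all from 6565. Medians per gene were not computed, so the gap may differ with 1 window per gene.

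The second set shows the heptamer TATTTTT, which together with TATTTTG is the insulin response sequence reported for PARIS. Both strands were searched, and the 2 heptamers differ only in their last letter. Each sequence is the 200 bp around the middle of a peak's summit region on the plus strand of mm10 (GRCm38.p6), and capitals mark the reverse complement of the heptamer, which lies on the minus strand in all 3. The 3 were chosen as the highest Kcn peaks of varying height that hold it, with no annotated exon in the window.
Kcnj6 peak summit, chr16:94883255-94883454, plus strand: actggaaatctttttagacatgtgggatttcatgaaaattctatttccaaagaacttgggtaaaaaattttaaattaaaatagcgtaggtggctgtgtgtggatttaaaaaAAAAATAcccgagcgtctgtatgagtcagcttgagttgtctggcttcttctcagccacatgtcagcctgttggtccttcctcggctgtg
Kcnq3 peak summit, chr15:66353866-66354065, plus strand: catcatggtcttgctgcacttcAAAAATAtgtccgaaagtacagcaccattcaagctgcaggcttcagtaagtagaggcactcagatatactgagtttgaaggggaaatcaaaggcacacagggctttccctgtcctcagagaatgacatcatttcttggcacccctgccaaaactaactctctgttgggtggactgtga
Kcnj2 peak summit, chr11:111785561-111785760, plus strand: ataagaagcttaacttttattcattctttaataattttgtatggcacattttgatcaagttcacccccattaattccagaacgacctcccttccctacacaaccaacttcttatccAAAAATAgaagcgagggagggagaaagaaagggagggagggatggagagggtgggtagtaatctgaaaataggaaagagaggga

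The Kcnj6, Kcnq3 and Kcnj2 peaks around these 3 windows had maxima of 301, 216 and 207. None of the 3 lay at a promoter: the Kcnj6 window was intronic, and the Kcnq3 and Kcnj2 windows lay in intergenic DNA, 67309 bp upstream and 719454 bp downstream of the assigned TSS. Of the 941 Kcn summit windows, 99 held a heptamer (10.5%, Wilson 95% interval 8.72 to 12.6), against 9.95% of all summit windows. The share was 13.1% in windows displaced by 1000 bp from the Kcn summits and 13.6% in those displaced from all summits. The motif was thus no more frequent under Kcn summits than beside them. Among the 102 Kcn peaks within 1 kb of a TSS it was present in 4 windows (3.92%), against 5.40% of all such peaks. In the RefSeq promoter windows a heptamer occurred in 7 of 96 Kcn windows (7.29%) and in 11.3% of all windows. GC content averaged 48.8% (SD 8.65 over 941 windows) at Kcn summits and 49.0% (SD 8.92) at all summits, with 46.0% and 45.6% in the displaced windows.

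Nearly every potassium channel gene had a peak assigned to it. Of the 94 protein-coding Kcn genes in GENCODE M21, 89 had at least 1 peak (94.7%, 88.1 to 97.7), against 71.0% of all 21911 protein-coding genes. A peak within 1 kb of an annotated TSS was assigned to 53 of the 94 (56.4%, 46.3 to 66.0), against 41.6% of all genes. For 44 of the 94 (46.8%, 37.0 to 56.8) such a peak was also not of constant height, against 28.3% of all genes. A peak of constant height is one whose total signal is at least 99% of its maximum signal multiplied by its width, so that coverage does not rise to a summit. The intervals cover counting error over genes or peaks only, and members of 1 library are not replicates.

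Potassium channel genes are long, with a median length of 30.8 kb against 17.4 kb for all protein-coding genes, and longer genes had peaks more often. Within classes of length the Kcn share with a peak within 1 kb of a TSS was 9 of 23 genes (39.1%) under 10 kb, against 26.1% of all genes of that length. It was 21 of 35 (60.0%) from 10 to 50 kb, against 45.1%, and 8 of 13 (61.5%) from 50 to 100 kb, against 55.6%. From 100 to 300 kb it was 7 of 10 (70.0%), against 60.6%. Above 300 kb it was 8 of 13 Kcn genes, below the 71.7% of all genes of that length.

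The Kcn peaks lay in introns more often, and at gene starts and between genes less often, than peaks in general. Introns held 491 of the 941 peaks (52.2%, 49.0 to 55.4), against 38.0% of all peaks, and 423 of them lay in an intron of the assigned gene (45.0%, against 28.7%). Within 1 kb of a TSS were 102 peaks (10.8%, 9.01 to 13.0), against 15.3% of all peaks, and within the 3 kb promoter class 166 (17.6%, against 24.6%). Distal intergenic DNA held 238 peaks (25.3%, 22.6 to 28.2), against 31.9%. The 5 genes with the most peaks (Kcnma1, Kcnh1, Kcnip4, Kcnj6 and Kcnq3) held 200 of the 941. Without them the shares moved to 43.5% in introns, 20.9% in promoters and 30.2% in distal DNA. The distal share was then close to the 31.9% of all peaks.

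**Figure D1:**
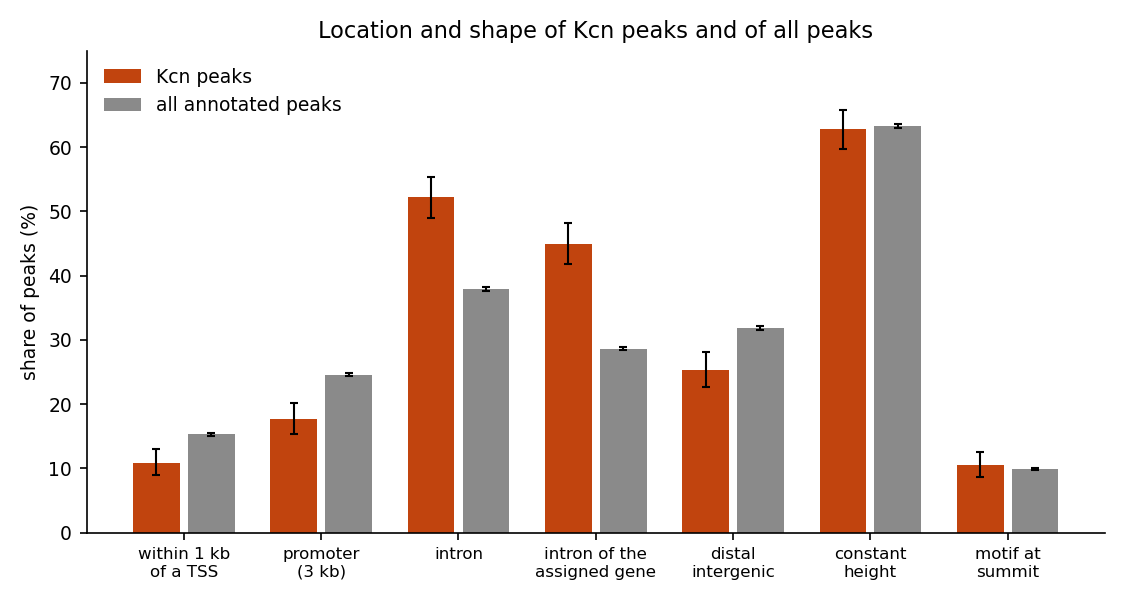
Share of peaks (%) in each location or shape class for the 941 Kcn peaks and all 99782 annotated peaks of 1 anti-FLAG library, with Wilson 95% intervals over peaks. The Kcn bar is higher for introns (52.2 against 38.0%) and lower near TSSs (10.8 against 15.3%), while the bars for constant height and for the motif have overlapping intervals.

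In height and shape the Kcn peaks were like the rest of the list. Their median maximum signal was 101 (quartiles 70 and 138, range 6 to 632), and that of all peaks was also 101 (quartiles 66 and 135, range 5 to 2395). The median width was 362 bp against 363 bp. Constant height was found for 591 Kcn peaks (62.8%, 59.7 to 65.8), against 63.3% of all peaks. The 10% of all peaks with the highest maxima included 103 Kcn peaks (10.9% of the Kcn peaks). Of the 350 Kcn peaks not of constant height, the median maximum was 136, against 134 in the whole list.

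**Figure D2:**
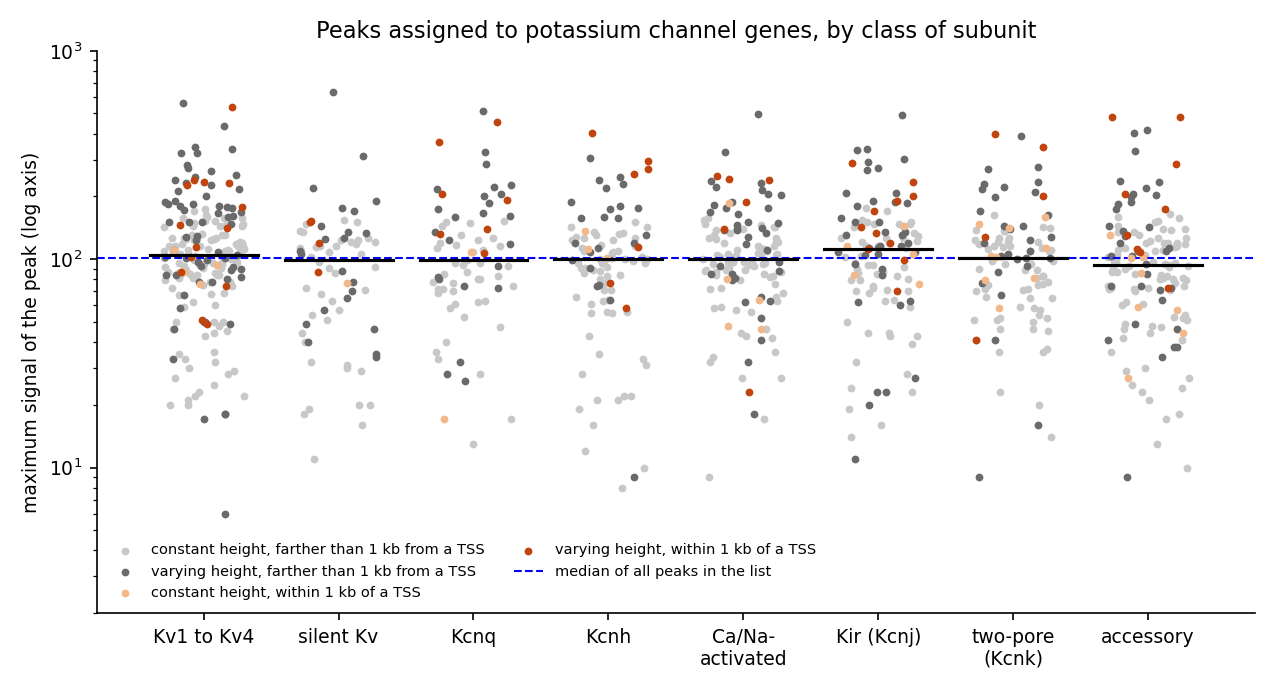
Maximum signal of each protein-coding Kcn peak (log axis, deposited units) by class of subunit in 1 library, coloured by whether the peak has constant height, with the class median as a bar and the median of all peaks, 101, as a dashed line. Class medians lie between 94 (accessory) and 112 (inward rectifiers), the lowest peaks of the classes between 6 and 13, and the highest between 397 and 632.

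The voltage-gated Kcna to Kcnd genes, which carry the delayed-rectifier and A-type currents, held 200 peaks over 17 genes with a median maximum of 104.5. All 17 had a peak and 8 had one within 1 kb of a TSS (47.1%, against 41.6% of all genes). The tallest promoter peak of any Kcn gene belonged to Kcna5, a Shaker-type channel, at chr6:126535283-126535730 with its summit 104 bp upstream of the TSS and a maximum of 535. Among the Shaw-type channels, which support fast spiking, Kcnc1 was dense in peaks. Kcnc1 had 26 peaks with maxima from 22 to 233 and 19 peaks inside its 42.2 kb body, or 450 per Mb.

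Several of the best-known voltage-gated genes of the hippocampus had no assigned peak with its summit within 1 kb of a TSS. All 12 peaks assigned to Kcna1, an axonal Shaker channel, were intergenic, the nearest 8654 bp from the TSS. Kcna4, an A-type Shaker channel, had 21 peaks, 20 of them distal, the nearest 4694 bp upstream and the tallest, 338, at 228458 bp downstream. Kcna2, also axonal, did have 3 peaks within 1 kb (highest 146), but its tallest peak, 433, was intergenic. The A-type dendritic channels Kcnd2 and Kcnd3 had 20 peaks each, with 14 in intron 1 of Kcnd2 and 19 in intron 2 of Kcnd3. Their nearest peaks lay 10239 bp and 5447 bp from the assigned TSS, and the Kcnd3 maxima ran from 23 to 323. A further peak, 954 bp from the start of Kcnd3, was assigned to its antisense RNA.

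The silent subunits, which give no current alone and assemble with other voltage-gated subunits, had the largest share of distal peaks of any class. Of 70 peaks over 10 genes, 43 were distal intergenic (61.4%, 49.7 to 72.0), against 36.0% in the next class, the Kcna to Kcnd genes. Most of the 43 came from Kcnf1 (13), Kcnv1 (12) and Kcng1 (10), whereas Kcng2, Kcng3 and Kcnv2 had none. In other classes, all 12 peaks of Kcna1, 20 of 21 of Kcna4 and 23 of 28 of Kcnj2 were also distal. The silent genes themselves were short, with a median length of 13.2 kb. The tallest Kcn peak of all was among them, a distal peak of Kcns2 at chr15:34829189-34830270, 7729 bp upstream of the TSS, with a maximum of 632. A peak within 1 kb of a TSS was assigned to 4 of the 10 genes (40.0%, against 41.6% of all genes), the highest being 152 at Kcns2 and 151 at Kcng1. Kcnf1 had the most peaks, 16, of which 13 were distal, and no peak was assigned to Kcng4.

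The Kcnq genes, which form the M-current that holds back repetitive firing, had 75 peaks over 5 genes, and 4 of the 5 had a peak within 1 kb of a TSS, against 41.6% of all genes. For 3 of the 5 such a peak was not of constant height, against 28.3% of all genes. That of Kcnq1 was of constant height, with a maximum of only 17. Kcnq3 had 29 peaks but none with a summit within 1 kb of a TSS, the nearest lying 1247 bp away, although 1 peak overlapped the gene start. Its tallest peak, 286, lay 27874 bp upstream of the TSS. Kcnq5 had 15 peaks with maxima from 13 to 126, and its gene body also held a peak of 297 that was assigned to another symbol.

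The Kcnh genes had 97 peaks over 8 genes, 68 of them intronic (70.1%, 60.4 to 78.3), and 6 of the 8 genes had a peak within 1 kb of a TSS (against 41.6% of all genes). Kcnh1, the ether-a-go-go channel, had 42 assigned peaks with maxima from 8 to 239, most of them along its 319 kb body and 4 beyond its 3′ end, and only 101 and less at its TSSs. Kcnh3, a forebrain member of the family, had 7 peaks and a maximum of 401 at chr15:99223323-99224248, 979 bp upstream of the TSS. Kcnh2, the channel of the cardiac rapid delayed rectifier, had 7 peaks and 295 at its promoter. Kcnh3 and Kcnh2 were named for the 2 highest promoter peaks of the class, and Kcnh1 for its number of peaks. These 3 genes therefore do not show how the number of peaks and promoter height relate.

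Among the calcium- and sodium-activated channels, Kcnma1 stood out by number. This gene encodes the large-conductance BK channel and had 63 peaks, the most of any Kcn gene, with maxima from 17 to 498 and a median of 110. Of these, 56 lay in its own introns, including the tallest at chr14:23884714-23886951. Only 1 lay within 1 kb of a TSS, a constant-height peak of 46, and the 5′ end of the gene was 9321 bp from the nearest peak. The small-conductance SK channel gene Kcnn2 had 15 peaks, with 243 at an internal TSS, 290.6 kb from the gene start. Its peak near the gene start, at 0.979 kb, had a maximum of 185 and was of constant height. The sodium-activated channels Kcnt1 and Kcnt2 had 13 and 9 peaks, with 240 and 251 as their highest values within 1 kb of a TSS. That of Kcnt1 lay at an internal TSS, 46.4 kb from the gene start. In all, 6 of 8 genes of this class had a peak within 1 kb of a TSS (against 41.6%). No peak was assigned to Kcnu1, although 2 peaks lay inside its gene body.

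**Figure D3:**
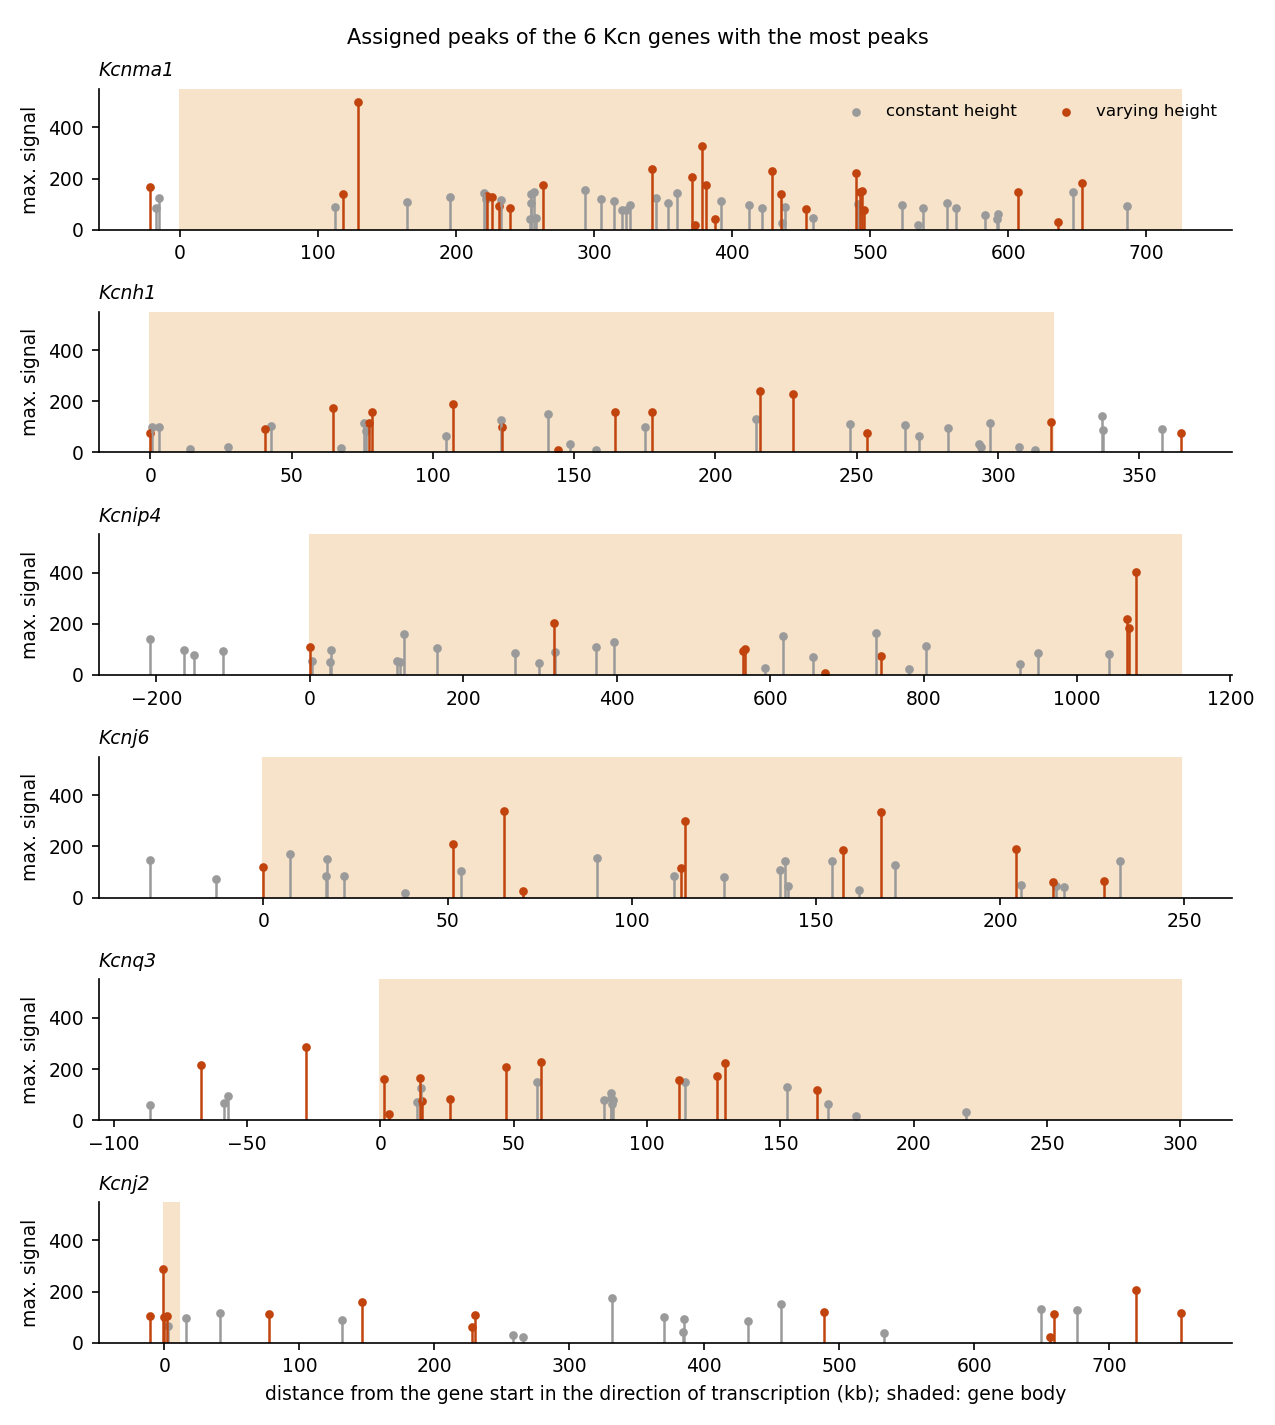
Positions of the assigned peaks (kb from the gene start in the direction of transcription) and their maximum signal for the 6 Kcn genes with the most peaks, with the gene body shaded and peaks of constant height in grey, in 1 library. Peaks of Kcnma1, Kcnh1 and Kcnj6 run along the gene body, those of Kcnq3 end before its 3′ end, and those of Kcnj2 extend up to 753 kb downstream of a 10.7 kb gene.

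The inward rectifiers had 117 peaks over 15 genes and the highest class median, 112, and 9 of the 15 genes had a peak within 1 kb of a TSS (60.0%, against 41.6% of all genes). Kcnj2, a strong inward rectifier, had 28 peaks, of which 23 were distal, 22 of them downstream over as much as 753 kb, with 289 at its promoter as the highest value. Kcnj4, of the same subfamily, had 9 peaks and a maximum of 493 at chr15:79502226-79503663, 1923 bp downstream of the TSS. The channels opened by G protein-coupled receptors, Kcnj3 and Kcnj6, had 15 and 32 peaks. The 3 tallest of Kcnj6, at 339, 333 and 301, lay in its introns, above its highest value within 1 kb of a TSS, 144. That value was at an internal TSS, 141.5 kb from the gene start. Kcnj11, the pore of the ATP-sensitive channel, had 3 peaks and 235 at a TSS. Kcnj10, the glial inward rectifier, had only 3 peaks, at 95, 94 and 70, none within 1 kb of a TSS. No peak was assigned to Kcnj8.

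The tandem-pore leak channels had 105 peaks over 14 genes. Every one of the 14 had a peak, and 9 had one within 1 kb of a TSS (64.3%, against 41.6% of all genes). For 4 of the 14 such a peak was not of constant height (28.6%, against 28.3%). Kcnk2, a mechanosensitive leak channel, had the most, 22, of which 10 were distal. Its tallest, 397 at chr1:189343288-189344434, lay 151 bp upstream of an internal TSS, while the 5′ end of the gene was 12083 bp from the nearest peak. Kcnk13, known from microglia, had 345 at its promoter and a median of 77.5 over its 8 peaks. Kcnk1, a weak inward rectifying leak channel, had 17 peaks, with 211 in intron 1 and 104 at its TSS.

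The accessory subunits had 139 peaks over 17 genes, the lowest class median, 94, and a peak within 1 kb of a TSS in 7 of the 17 genes (41.2%, against 41.6% of all genes). Kcnab2, which binds Shaker channels in the axon, had the tallest of them, a peak of 480 at chr4:152476616-152478776, over a TSS, and another of 479 at chr4:152447822-152448703. Kcnab3, of the same family, had 285 at its promoter. Kcnip4 and Kcnip3 encode calcium-binding partners of Kcnd channels. Kcnip4 had 34 peaks in a 1135 kb gene, with 108 at its TSS and 401 in an intron near its 3′ end. Kcnip3, a shorter gene of 65.6 kb, had 8 peaks, 3 within 1 kb of a TSS, with 205 as the highest. Kcnmb4, the neuronal BK accessory subunit, had 5 peaks, all intronic, the highest 145. No peak was assigned to Kcne1l or Kcnrg. The 3 non-coding symbols held 9 peaks (Kcnmb4os1), 3 (Kcnmb4os2) and 1 (Kcnq1ot1), and 2 of the Kcnmb4os1 peaks, including its tallest at 245, lay in introns of Kcnmb4.

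Of 22 Kcn genes well known in hippocampal neurons or glia, all 22 had an assigned peak (against 71.0% of all genes), 15 had one within 1 kb of a TSS (against 41.6%), and for 13 such a peak was not of constant height (against 28.3%). Those without an assigned summit within 1 kb were Kcna1, Kcna4, Kcnd2, Kcnd3, Kcnq3, Kcnj10 and Kcnmb4. The gene starts of Kcnd3 and Kcnmb4 nevertheless had a peak at 954 and 901 bp, assigned to antisense RNAs, and that of Kcnq3 lay under a peak. The 5 protein-coding Kcn genes without any assigned peak were Kcne1l, Kcng4, Kcnj8, Kcnrg and Kcnu1. The distance from their gene starts to the nearest peak of any gene was 7580 bp for Kcnu1, 21950 bp for Kcng4, 40449 bp for Kcnrg, 61391 bp for Kcnj8 and 83478 bp for Kcne1l, which is on the X chromosome.

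Inside gene bodies the Kcn genes held more peaks per length than genes in general, and the gap was widest from 10 to 100 kb of gene length. The 94 gene bodies, 10.4 Mb in all, held 666 peaks, or 64.0 per Mb, against 54.5 per Mb for all protein-coding genes. Without constant-height peaks the densities were 23.5 and 20.9 per Mb. Under 10 kb the Kcn density was 139 per Mb against 93.7, with a median per gene of 0 in both sets. From 10 to 50 kb it was 150 per Mb against 66.4, and from 50 to 100 kb it was 115 against 58.0. From 100 to 300 kb it was 61.2 against 54.1, and above 300 kb 44.6 against 40.4, where the median per gene was 32.1 for Kcn and 34.1 for all genes. By class the density ran from 44.6 per Mb for accessory subunits, whose genes include the longest, to 96.8 for inward rectifiers and 100.1 for tandem-pore channels. Gene length and the number of peaks in the body rose together, with a Spearman coefficient of 0.81 over the 94 Kcn genes and 0.66 over all 21911. All these genes share the same library.

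**Figure D4:**
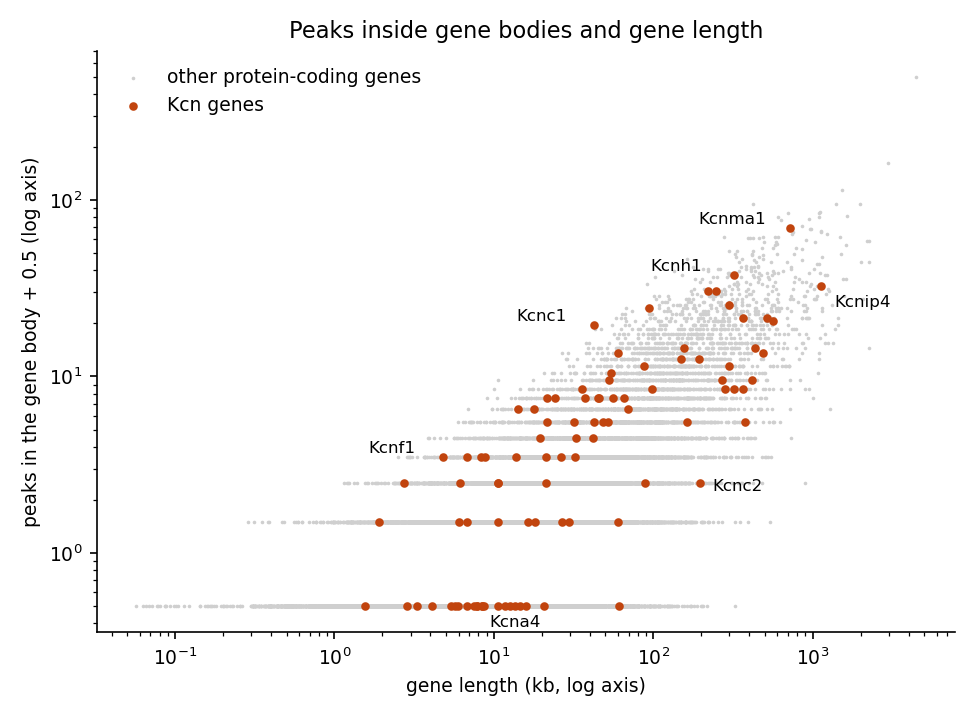
Peaks inside the gene body plus 0.5 (log axis) against gene length in kb (log axis), each point 1 protein-coding gene in 1 library, Kcn genes in colour and the others in grey. Most Kcn genes lie within the cloud of other genes, with Kcnma1 (69 peaks in the body) highest and Kcnc1 (19 peaks in 42.2 kb) at its upper edge.

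Intronic Kcn peaks lay in intron 1 more often than intronic peaks in general. Of the 423 peaks in introns of the assigned gene, 234 were in intron 1 of their transcript (55.3%, 50.6 to 60.0), against 32.8% of 28590 such peaks in the whole list. Without the 5 genes with the most peaks the share was 152 of 259 (58.7%). Kcn transcripts have fewer introns, a median of 7 per peak against 12. Among transcripts of up to 5 introns the shares were 68.2% against 50.3%, from 6 to 15 introns 48.7% against 31.5%, and over 15 introns 47.4% against 24.0%. In the 57 host transcripts (49 genes) that GENCODE M21 holds, intron 1 made up 47.6% of summed intron length and held 54.5% of the 411 peaks. Per summed length this came to 43.4 peaks per Mb in intron 1 and 32.9 per Mb in the other introns. Introns of alternative transcripts of a gene can overlap and were each summed in full, while each peak was credited to 1 transcript. These shares and densities are therefore approximate, and no such length share was computed over all genes.

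The classes differed in this share. All intronic peaks of the Kcnq class lay in introns of Kcnq genes, 43 of 46 in intron 1 (93.5%, 82.5 to 97.8). Intron 1 is 58.0% of the summed intron length there. Kcnq3 gave 22 of the intron 1 peaks, in an intron of 254 kb. In the Kcnh class only 4 of 68 intronic peaks were in intron 1 (5.88%, 2.31 to 14.2). There, intron 1 is 12.2% of the intron length of the host transcripts, and 6.35% of their 63 peaks lay in it. Kcnh1 contributed most of them, with 10 peaks in intron 10, 7 in intron 7 and 6 each in introns 5 and 6. Intron 1 of the Kcnma1 transcript with 27 introns held 23 peaks in 153 kb, or 150 per Mb, and intron 1 of its transcript with 29 introns held 5 in 200.4 kb, or 24.9 per Mb. In Kcnip4, 14 peaks were credited to intron 1 of the host transcript with 8 introns, which spans 1015 kb. Intron 1 of 3 other transcripts was credited with fewer each. Some of these introns overlap and each peak was credited to 1 transcript, so 14 need not be all the peaks within the 1015 kb. The whole gene body held 32. In tandem-pore genes intron 1 was 41.1% of the summed intron length and held 68.6% of the peaks.

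**Figure D5:**
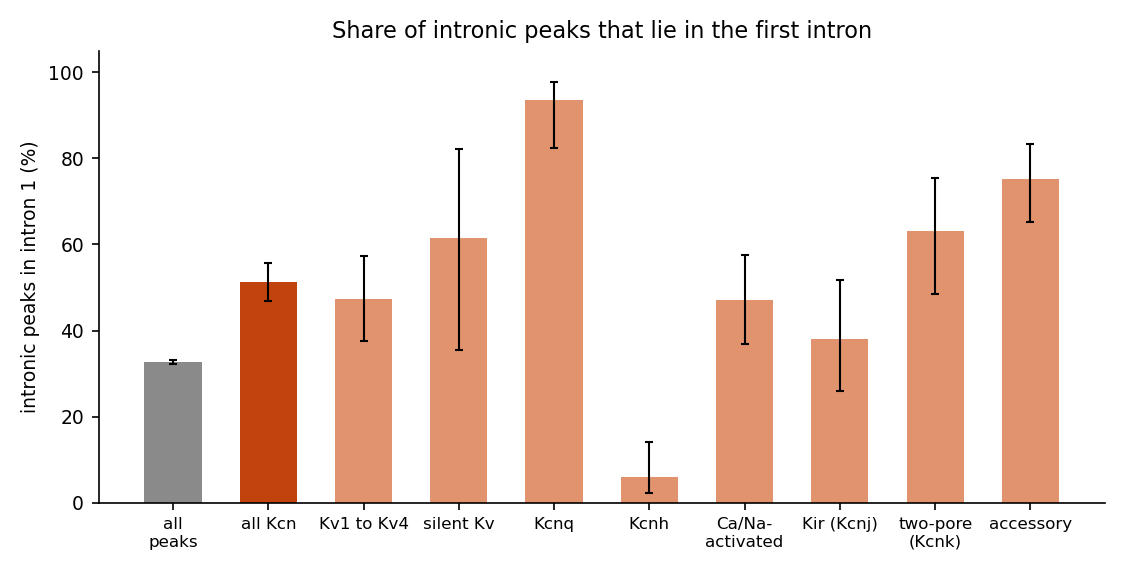
Share of intronic peaks (%) that lie in intron 1 of their transcript for all peaks, all Kcn peaks and each Kcn class of 1 library, with Wilson 95% intervals over peaks. Kcnq is highest at 93.5% and Kcnh lowest at 5.88%, against 32.7% over all peaks.

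Along the 36 Kcn genes of at least 50 kb, the share of peaks fell from the 5′ to the 3′ end. Divided into 5 equal stretches from 5′ to 3′, the gene bodies held 23.4, 21.6, 21.0, 17.4 and 16.6% of 518 peaks. Over all genes of that length the shares were 23.7, 18.4, 18.5, 18.9 and 20.5%. The first Kcn stretch was thus not above the value over all genes, and the interval of the last (13.6 to 20.1%) lay just below it. That interval treats peaks as independent, although single genes gave many of them, such as Kcnma1 (69) and Kcnh1 (37). The shares were not computed without these genes.

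Some peaks assigned to Kcn genes lay far from them or inside other genes, since the deposited annotation gives each peak 1 TSS at any distance. Of the 491 intronic peaks, 46 lay in an intron of another named gene than the assigned one, and 22 in an intron of a transcript without a gene name. Examples were 6 peaks of Kcnc1 in Sergef, 6 of Kcnmb1 in Kcnip1 and 4 of Kcnh1 in Hhat. Distal peaks were most numerous for Kcnj2 (23), Kcna4 (20, out to 887 kb), Kcnf1 (13), Kcnv1 (12, out to 579 kb) and Kcna1 (12). Whether such peaks act on the assigned gene was not tested.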

How the data were processed

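CUT&Tag libraries of 1 anti-FLAG and 1 IgG sample were considered. Per the labels' protocols, the authors used Bowtie2 to place trimmed reads on mm10, dropped duplicates and reads of low quality, and ran SEACR with the IgG library as the control. Versions and the SEACR stringency are not given in the sources used here. The deposited signal values (total and maximum per peak) are coverage, and their scaling is not stated. The distances and classes come from the deposited annotation table. It was matched to the anti-FLAG sample by the library name in the labels. The tool behind it is not given. No IgG file was analysed here, and sequencing depth is unknown.

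The peak list holds 99797 peaks, of which 99782 are annotated. Counts, shares with Wilson 95% intervals, medians and densities were computed with Python 3.11.15, pandas 2.3.3, statsmodels 0.14.6 and pysam 0.24.0, and the functions were tested on simulated data. The genome was GRCm38.p6 with GENCODE M21, and promoter sequences came from RefSeq. Positions are counted from 1. No test was run, because each antibody has 1 library.

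In each class, the text names the genes with the 2 highest peaks within 1 kb of a TSS, the gene with the most peaks, a list of 22 well-known genes, the genes of the 5 peaks highest by maximum and by total signal, and genes without a peak (42 genes in all). Some genes that this rule names are not reported here. Other Kcn names were chosen after their values were seen. The members, lists and comparisons were chosen with earlier results of these data known. Alternatives were subsets by signal or shape, merged peaks, other TSS distances, overlap rules and window widths, and leaving out the 5 genes with the most peaks, the last chosen after seeing the data.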

Additional observations from a re-analysis of the deposited data

How the results depend on the processing

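For 12 values, 67 alternatives were computed. Of these, 16 moved by less than the counting interval (counts by less than 1.5 times) and 51 moved by more. No paired analysis was possible because each antibody has 1 library. The subsets by signal or shape hold fewer peaks by construction, which lowers counts, densities and shares of genes. The cause of other moves was not tested.

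Over peaks with a maximum signal above the median, the Kcn peaks numbered 469, with 14.3% within 1 kb of a TSS, 20.9% in promoters, 22.6% distal and 48.8% of constant height. Of the Kcn genes 87.2% had a peak, with 31.9 peaks per Mb of gene body and a GC content of 50.4%. In all peaks of that subset the shares were 18.5, 27.6, 29.9 and 50.9%, with a GC content of 50.5%. Over the top 10% by maximum signal, the values were 103 peaks, 27.2% within 1 kb, 30.1% in promoters, 15.5% distal and 0% of constant height. There, 55.3% of genes had a peak and 24.5% one within 1 kb, with 7.40 peaks per Mb, a motif share of 3.88% and a GC content of 54.1%. In all peaks of that subset 32.2% lay within 1 kb, 41.4% in promoters and 23.3% distal, with a motif share of 5.96% and a GC content of 55.3%. Over the top 10% by total signal, the values were 108 peaks, 25.9% within 1 kb, 33.3% in promoters, 46.3% in introns, 13.9% distal, 4.63% of constant height and a median maximum of 227.5. There, 56.4% of genes had a peak and 25.5% one within 1 kb, with 7.89 peaks per Mb, a motif share of 6.48% and a GC content of 53.9%. In all peaks of that subset 36.0% lay within 1 kb, 45.8% in promoters, 29.2% in introns and 20.6% distal, with a motif share of 5.89% and a GC content of 55.9%. With constant-height peaks left out, the values were 350 peaks, 18.0% within 1 kb, 26.3% in promoters, 48.0% in introns, 21.1% distal and a median maximum of 136. There, 83.0% of genes had a peak, with 23.5 peaks per Mb, a motif share of 7.43% and a GC content of 52.3%. In all peaks of that subset 23.2% lay within 1 kb, 32.7% in promoters, 35.5% in introns and 27.7% distal, with a motif share of 7.0% and a GC content of 52.8%.

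Merging peaks within 1 kb gave 52.3 peaks per Mb. With a TSS distance of 500 bp, 6.48% of peaks and 42.6% of genes were counted as near a TSS, and with 3 kb 17.6% and 70.2%. Windows of 400 bp gave a motif share of 18.9% and a GC content of 48.4%. Without the 5 genes with the most peaks, promoters held 20.9%, introns 43.5% and distal DNA 30.2%, with a GC content of 49.3%. The intron share remained above the 38.0% of all peaks, while the distal share came close to their 31.9%.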

Other observations

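Genes that encode partners of potassium channels outside the Kcn symbols also had assigned peaks. All 16 genes of a list of such partners had an assigned peak, 205 in total with a median of 8 per gene, and 14 had a peak within 1 kb of a TSS, against 71.0% and 41.6% of all protein-coding genes. For Amigo1, Cntnap2, Abcc9, Lrrc55 and the related cation channels Hcn2 and Hcn3, the highest peak within 1 kb was of constant height. Cntnap2, which holds Shaker channels next to the node of Ranvier, had 52 peaks with a highest maximum of 179. Dpp6 and Dpp10, auxiliary subunits of Kcnd channels, had 39 and 33 peaks, and the highest values were 401 for Dpp6, outside its promoter, and 259 for Dpp10, within 1 kb of a TSS. Abcc8, the sulfonylurea receptor that pairs with the Kcnj11 pore, had 13 peaks with 213 as the highest within 1 kb of a TSS. The BK partners Lrrc38 and Lrrc52 had no peak within 1 kb of a TSS. Peaks are assigned by position, and no test compares this list with other genes.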
